A study of Apis mellifera with 3 samples.

Results

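Among the transcripts of worker honeybees whose RNA was labelled as coming from hypopharyngeal glands, 57 of 21441 sequences had a described protein match and were higher in both the spring and the retired library than in the winter library. They were chosen by the measured levels themselves. RPKM is the number of uniquely mapped reads scaled by the length of the sequence and by the library's total, and RPKM + 1 had to be at least 2 times the winter value in spring and in retired, with at least 10 RPKM in 1 of the 2. Matches holding words for royal jelly, venom, takeout and disulfide proteins, for P450, glucosyl and glucose dehydrogenase enzymes, for Sec61 and the translocon, or the words tRNA, synthetase, polymerase, signal or glucose-regulated, were left out. The differences from winter are therefore given as descriptions of the chosen members and support nothing by themselves. The bees were Apis mellifera carnica Pollmann, full sisters from queens inseminated with the sperm of 1 isolated drone, per the labels' protocols. There was 1 library for each of the winter, spring and retired groups, made from 30 pooled bees, so no difference has a replicate check and no test across samples was possible. The labels give 3 days after emergence for the winter, 6 days for the spring and 9 days for the retired pool, while their protocol calls the adults age-matched. Season, labelled age and group cannot be told apart.

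The hypopharyngeal glands are paired head glands of worker bees. In nurses they make the proteins of royal jelly, and in foragers they make enzymes that act on nectar sugars. Cells that secrete much protein rely on chaperones of the endoplasmic reticulum, on vesicle transport to the cell surface, and on a supply of amino acids, sugars and energy.

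Uniquely mapped reads numbered 3.85 M (megareads) in the winter, 3.29 M in the spring and 3.18 M in the retired library. Gland products (matches named royal jelly, glucose oxidase or apisimin) summed to 61277 RPKM in winter, 170892 in spring and 140136 in retired, over 67 sequences. Markers of other tissues were read as well, and the series' design text speaks of heads as well as glands. The 40 neuron marker sequences summed to 2693, 2195 and 2272 RPKM in winter, spring and retired. In the same order the sums were 369, 314 and 467 RPKM for 24 photoreceptor markers, 948, 717 and 1044 for 52 muscle markers and 411, 345 and 319 for 14 fat body markers. The 5 haemocyte markers summed to 62.4, 36.9 and 30.1 RPKM and the 23 antenna markers to 2682, 689 and 2081. Each list had most of its sequences read in every library, from 17 to 20 of the 23 antenna markers to all 5 haemocyte markers. In the spring library all 6 of these tissue sums were below winter, while the gland products were above it. In the retired library the photoreceptor and muscle sums were above winter, as were the gland products. The neuron, fat body, haemocyte and antenna sums were below winter there. RPKM is a share of the library, so other sequences fall when gland products take more of the reads. The median log2 ratio to winter over described sequences with at least 10 RPKM in spring or retired was itself -0.17 in spring and -0.19 in retired. The part of tissue make-up in the members' levels was not tested. In such pools fewer cells of a type and less RNA per cell cannot be told apart.

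Together the 57 members took 0.438% of all reads in winter (95% Wilson interval 0.432 to 0.445%), 1.24% in spring (1.23 to 1.25%) and 1.72% in retired (1.71 to 1.74%). Intervals come from read counts, cover counting error only, and treat reads copied by PCR as independent. Most of these reads lay on 4 sequences, which held 61.4% of the members' reads in winter, 53.5% in spring and 71.4% in retired. Without those 4 the share was 0.169% in winter, 0.575% in spring and 0.494% in retired. The order of spring and retired in the summed share was therefore set by 4 sequences. Of the 7227 described sequences with at least 10 RPKM in spring or retired, 188 (2.6%) were at least 2-fold above winter in spring and 129 (1.78%) in retired. In both were 86 (1.19%), from which the 57 members remain after the exclusion of words. The members' median log2 ratio was 1.70 for spring over winter and 1.41 for retired over winter, beside -0.17 and -0.19 over all 7227.

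Depth differed widely between members. The winter library held at least 100 reads for 16 members and fewer than 10 for 18. Members were chosen on these same ratios to winter, so the ratios and their intervals are tilted upward, most where reads are few. The intervals are therefore a guide to depth and no test of a difference from winter. In 48 members both ratios to winter had intervals above 1, and in 25 both had intervals above 2. In the other 9 the interval of at least 1 ratio to winter included 1, so equal levels lay within counting error there. These 9 are the low sequences for the hypoxia up-regulated protein, hedgehog, apisimin, ribosomal protein L35a, 1 alpha-mannosidase (DB744246), Tim13, FAM136A, LOC725422 and twitchin.

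**Figure D1:**
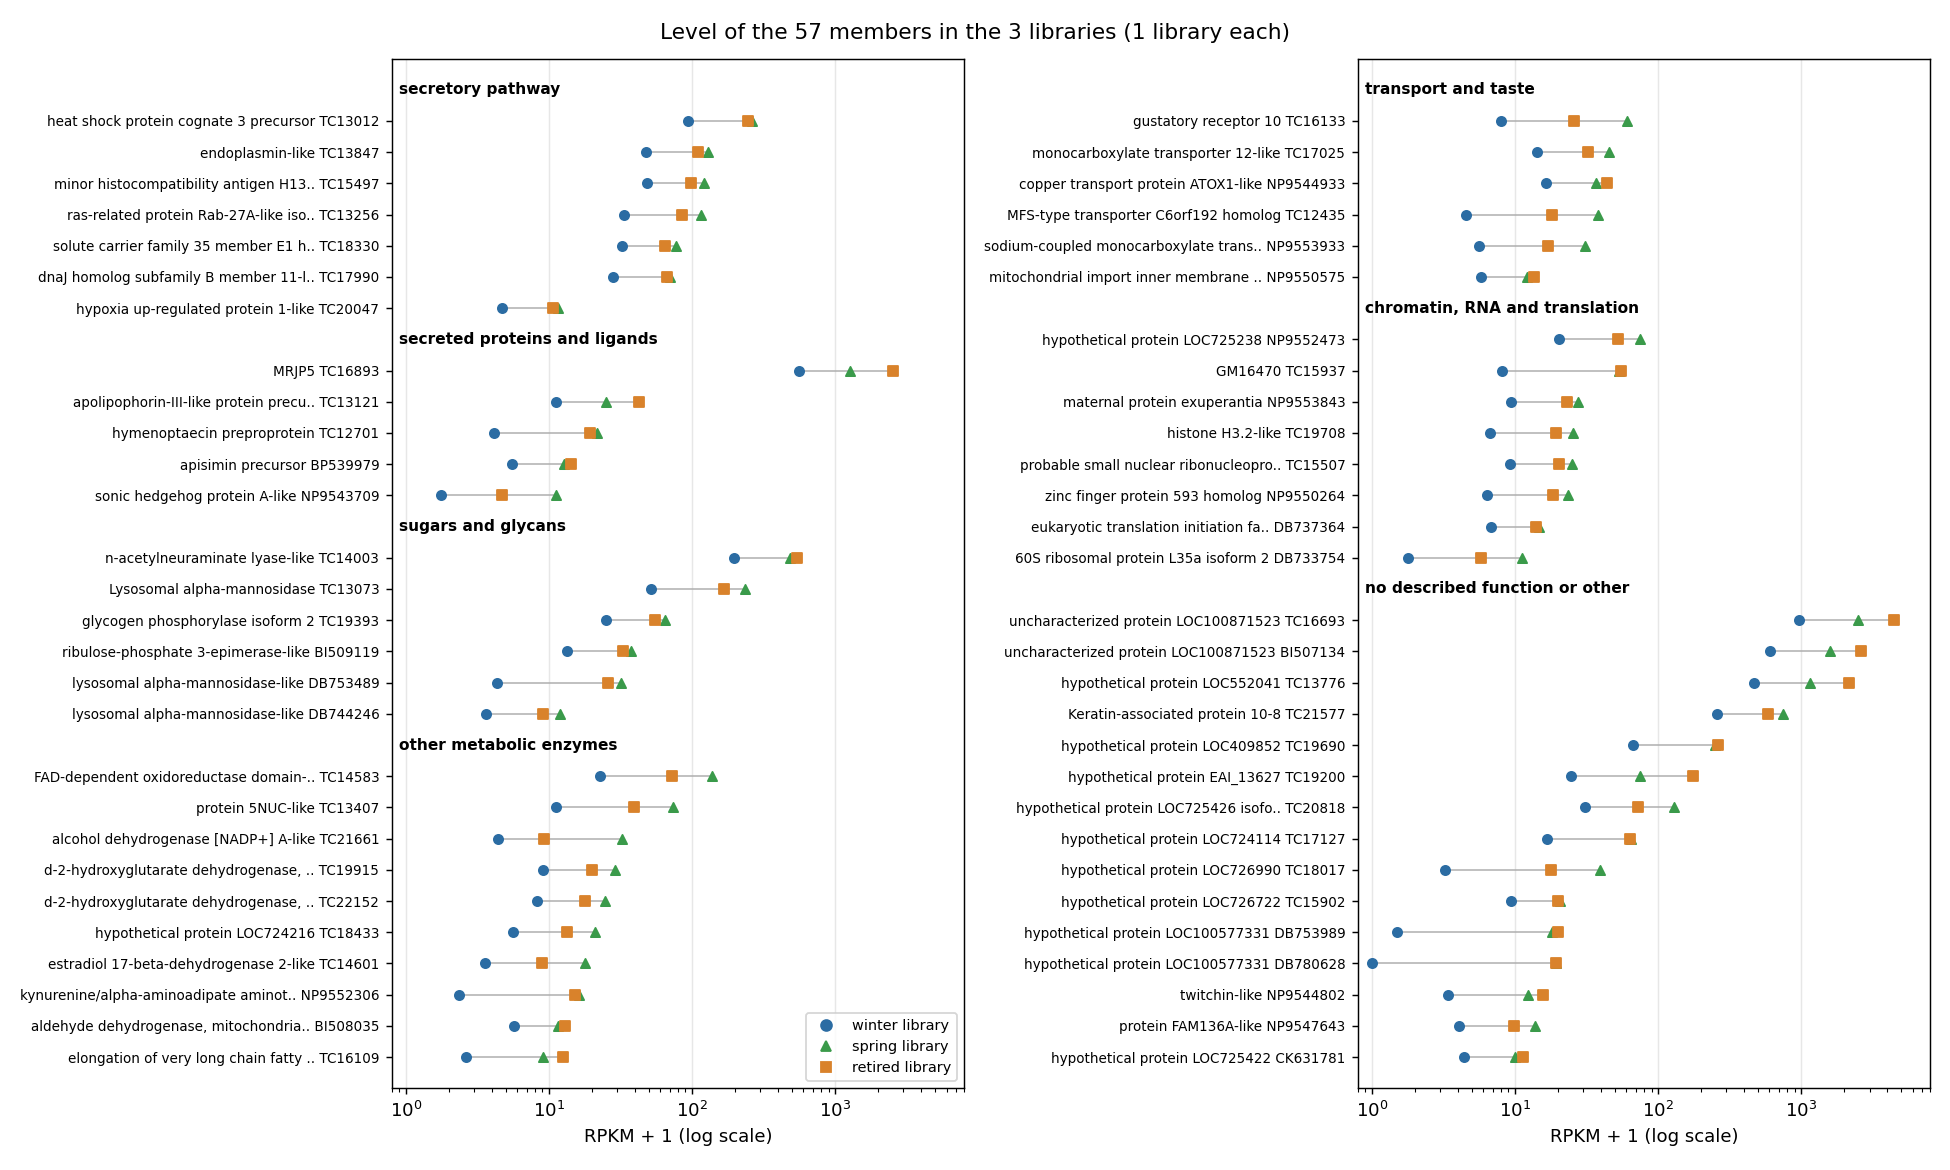
Level of each of the 57 members as RPKM + 1 on a log axis in the winter (circles), spring (triangles) and retired (squares) libraries, 1 library each, ordered by role. Winter is the lowest point in every row by the rule of choice, while the retired point lies right of the spring point in the 4 most abundant sequences.

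Of the 7 members that belong to the secretory pathway, 4 are chaperones of the endoplasmic reticulum. Hsc70-3 (TC13012), the honeybee BiP, which holds newly imported proteins until they fold, stood at 92.7 RPKM in winter, 261 in spring and 244 in retired. Its reads were 2.81-fold higher in the spring than in the winter library (exact interval 2.62 to 3.03) and 2.64-fold higher in the retired library (2.45 to 2.84). An endoplasmin-like sequence (TC13847), the Hsp90 of this compartment, stood at 46.7, 128.6 and 108.7 RPKM in the order winter, spring, retired, which is kept below. A DnaJ homolog of the B11 type (TC17990), in mammals a partner of BiP, followed at 26.9, 69.2 and 66.2 RPKM. These 3 chaperone sequences had similar ratios to winter, between 2.33-fold and 2.81-fold. The fourth, a hypoxia up-regulated protein 1-like sequence (TC20047) of the large Hsp70 family, rested on 7, 17 and 15 reads.

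The other 3 act in the membrane or in vesicles. A sequence like minor histocompatibility antigen H13 (TC15497), the signal peptide peptidase that cuts up leftover signal peptides, stood at 47.7, 120.6 and 97.1 RPKM. A Rab-27A-like sequence (TC13256), in mammals a GTPase of secretory granule release, stood at 32.3, 114.3 and 84.2 RPKM. A sequence like solute carrier 35 E1 (TC18330), from a family of nucleotide sugar transporters, stood at 31.6, 76.5 and 64.2 RPKM and had the smallest ratio of all members to winter in retired. All 7 secretory sequences were lower in the retired than in the spring library, and the intervals of 5 lay below 1. The lowest of these was Rab-27A, 1.36-fold lower in retired (1.18 to 1.56).

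Secreted proteins formed a more mixed group. A sequence matching MRJP5 (TC16893), a royal jelly protein whose entry spells only the short name and so passed the word filter, stood at 560 RPKM in winter, 1267 in spring and 2545 in retired. It was 2.26-fold above winter in spring (2.15 to 2.38) and 4.54-fold above winter in retired (4.33 to 4.76). Reads covered a fraction of only 0.257 to 0.404 of its length, and reads that mapped equally well to other royal jelly sequences are not in the count of unique reads. The lipid carrier A4 (TC13121), which resembles apolipophorin-III, stood at 10.3, 24.04 and 41.5 RPKM. Both were higher in retired than in spring, with intervals above 1. A4 is also 1 of the 14 fat body markers, whose sum ran the other way.

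Hymenoptaecin (TC12701), an antimicrobial peptide of bees, stood at 3.13, 20.6 and 18.5 RPKM, on 8, 45 and 39 reads. Spring was 6.58-fold above winter (3.07 to 16.2), and spring and retired did not differ beyond counting error. A sonic hedgehog protein A-like sequence (NP9543709), a secreted signalling ligand in animals, had 2 reads in winter, 23 in spring and 8 in retired. Its ratio of spring to winter was 13.5 with a wide interval (3.33 to 118). A fragment matching apisimin (BP539979), a small jelly protein, was included on 5, 11 and 12 reads.

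Of the 6 members that act on sugars and glycans, 3 match lysosomal alpha-mannosidases, which strip mannose from glycoprotein sugar chains. The longest (TC13073) stood at 50.7 RPKM in winter, 234.9 in spring and 165.4 in retired. It was 4.63-fold above winter in spring (4.23 to 5.08) and 3.26-fold in retired (2.97 to 3.59). The other 2 (DB753489 and DB744246) match another alpha-mannosidase entry and stood at 3.36, 30.9 and 24.97 RPKM and at 2.65, 10.9 and 8.03 RPKM. Summed they were 7.34-fold above winter in spring (3.86 to 15.4) and 5.84-fold in retired (3.01 to 12.4), on 11 winter reads. Both alpha-mannosidase entries were highest in spring, and winter was lowest by the rule of choice. For the second entry the summed ratio of retired over spring was 0.795, with an interval that included 1 (0.545 to 1.15).

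An N-acetylneuraminate lyase-like sequence (TC14003), an enzyme that splits sialic acid, was the most abundant of the group at 194 RPKM in winter, 482 in spring and 544 in retired. It was the only one of these 6 with an interval above 1 for retired over spring, at 1.13-fold (1.06 to 1.20). A ribulose-phosphate 3-epimerase-like sequence (BI509119) of the pentose phosphate pathway stood at 12.3, 36.2 and 31.7 RPKM. A glycogen phosphorylase fragment (TC19393) stood at 23.9, 64.2 and 54.1 RPKM. Other sequences of the same phosphorylase entry did not share this pattern, as given with the sums per match.

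Of the 10 other metabolic enzymes, 8 were highest in spring. A sequence named for an FAD-dependent oxidoreductase domain (TC14583), for which the orthology column names a sarcosine oxidase, stood at 21.8 RPKM in winter, 136.2 in spring and 71.6 in retired. A 5NUC-like sequence (TC13407), a nucleotidase that takes the phosphate off nucleotides, stood at 10.2, 72.3 and 38.5 RPKM and was 7.06-fold above winter in spring (5.78 to 8.71). An NADP-dependent alcohol dehydrogenase-like sequence (TC21661) stood at 3.37, 31.6 and 8.18 RPKM. These 3 shared a spring level far above the retired level, most of all the dehydrogenase, which was 3.87-fold lower in retired than in spring (2.50 to 6.19).

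A kynurenine aminotransferase-like sequence (NP9552306), which acts on a breakdown product of tryptophan, stood at 1.36, 15.4 and 14.2 RPKM, with spring 11.3-fold above winter (4.89 to 32.1) on 6 winter reads. Spring and retired did not differ beyond counting error for it. LOC724216 (TC18433), which the authors' orthology column names juvenile hormone acid methyltransferase, a late enzyme of juvenile hormone synthesis, stood at 4.64, 19.8 and 12.4 RPKM. A sequence like estradiol 17-beta-dehydrogenase 2 (TC14601), which the orthology column instead names a 3-hydroxybutyrate dehydrogenase, stood at 2.57, 16.7 and 7.96 RPKM. For the last pair of sequences the interval of retired over spring lay below 1.

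Sequences of a D-2-hydroxyglutarate dehydrogenase entry, a mitochondrial enzyme, appeared as 2 members with near-equal levels. For both the orthology column instead names a D-lactate dehydrogenase. TC19915 stood at 8.11, 27.9 and 19.1 RPKM and TC22152 at 7.22, 23.7 and 16.9 RPKM. An elongase-like sequence (TC16109), of the enzymes that lengthen fatty acids, has an orthology entry for a translation initiation factor and stood at 1.65, 8.13 and 11.6 RPKM on 5 winter reads. A mitochondrial aldehyde dehydrogenase fragment (BI508035) stood at 4.71, 10.5 and 11.9 RPKM. The elongase and the aldehyde dehydrogenase fragment were the only 2 of these 10 enzymes whose retired level was above spring, and neither interval excluded 1.

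Transporters and a taste receptor made up a group of 6. Gustatory receptor 10 (Gr10, TC16133), a honeybee taste receptor, stood at 6.98 RPKM in winter, 59.5 in spring and 24.8 in retired. It was 8.53-fold above winter in spring (5.73 to 13.2) and 3.55-fold in retired (2.28 to 5.66). A transporter of the major facilitator superfamily named C6orf192 homolog (TC12435), in mammals a vesicular transporter of polyamines, stood at 3.58, 37.3 and 17.1 RPKM. Its ratio to winter was 10.4 in spring (6.62 to 17.2) and 4.79 in retired (2.94 to 8.14). Both were thus above winter in the retired library but under their spring level.

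Among carriers of small acids, a sodium-coupled monocarboxylate transporter 2-like sequence (NP9553933) stood at 4.61, 29.9 and 15.97 RPKM. A monocarboxylate transporter 12-like sequence (TC17025) stood at 13.3, 44.5 and 31.3 RPKM. For both the interval of retired over spring lay below 1. An ATOX1-like copper chaperone (NP9544933) stood at 15.4, 36.1 and 43.1 RPKM on 13, 26 and 30 reads, and a Tim13-like subunit of mitochondrial protein import (NP9550575) had 5, 10 and 11 reads. The last pair were highest in retired, with intervals that included 1.

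Chromatin, RNA and translation gave 8 members, of which 3 were annotated as histones. LOC725238 (NP9552473), a linker histone of the H1/5 kind in the authors' orthology column, stood at 19.2 RPKM in winter, 73.4 in spring and 51.8 in retired. A histone H2B in that column (TC15937, with a best match to a Drosophila protein of no descriptive name) stood at 7.08, 52.1 and 53.9 RPKM. A histone H3.2-like sequence (TC19708) stood at 5.64, 24.4 and 18.4 RPKM. All 3 had both intervals to winter above 1, the H2B sequence at 7.36-fold in spring (4.16 to 14.01) and 7.61-fold in retired (4.31 to 14.5).

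Other histone sequences did not follow as a group. Apart from the members, 13 histone sequences were found by name after the values had been seen. An H2A sequence (TC14010), with 4, 12 and 11 reads, was the only one of the 13 at least 2-fold above winter in both libraries, and it stayed below 10 RPKM. The most abundant, histone H3.3 (TC14096), stood at 63.1, 67.4 and 73.997 RPKM, and a further H2A sequence (NP9546647) at 13.9, 4.06 and 7.55 RPKM. Histone genes have near-identical copies and only uniquely mapped reads were counted, so the level of a single histone sequence is uncertain.

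The RNA and translation members were low. The Drosophila protein exuperantia places messenger RNA in the egg, and its honeybee homolog (NP9553843) stood at 8.37, 26.5 and 21.9 RPKM. A spliceosome Sm D2-like sequence (TC15507) stood at 8.16, 24.1 and 19.2 RPKM. A ZNF593 homolog (NP9550264), a zinc finger protein, stood at 5.41, 22.5 and 17.5 RPKM. Each was somewhat lower in retired than in spring, with intervals that included 1. Fragments matching initiation factor 5A (DB737364) and ribosomal protein L35a (DB733754) had 12, 24 and 22 reads and 1, 11 and 5 reads.

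Of the remaining 15 members, most matched proteins with no described function, and these included the most abundant of all. The Apis florea protein LOC100871523 was matched by TC16693, at 963 RPKM in winter, 2481 in spring and 4474 in retired, and by BI507134, at 605, 1583 and 2599 RPKM. LOC552041 (TC13776) stood at 467, 1146 and 2172 RPKM. With MRJP5 these are the 4 sequences that held most of the members' reads. In all 4 the libraries stood in the order winter, spring, retired, and each was above 4-fold over winter in retired, between 4.30-fold for BI507134 and 4.65-fold for TC16693.

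LOC409852 (TC19690), a long sequence of 3429 bases, stood at 65.6, 250.1 and 261.5 RPKM, with ratios to winter of 3.81 in spring (3.53 to 4.12) and 3.98 in retired (3.69 to 4.30). Its spring and retired levels did not differ beyond counting error. A sequence matching an ant protein of no described function (TC19200) stood at 23.5, 73.9 and 175.6 RPKM, 7.47-fold above winter in retired (5.59 to 10.2). LOC725426 (TC20818) ran differently, at 29.9, 128.1 and 71.3 RPKM. LOC726990 (TC18017) stood at 2.24, 38.4 and 16.7 RPKM, with spring 17.2-fold above winter (7.58 to 48.04) on 6 winter reads. TC19200 was thus highest in retired, and LOC725426 and LOC726990 in spring.

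The 2 sequences of LOC100577331 were nearly unread in winter. DB753989 had 1 read in winter, 29 in spring and 31 in retired. DB780628 had 0, 29 and 28 reads, and its orthology entry names calcium-activated chloride channel family member 4. Against a winter floor of 3 reads in the library, DB780628 was at least 11.3-fold higher in both spring and retired, a bound that leaves out counting error in the 29 and 28 reads. The exact lower limits from the read counts were 8.63-fold in spring and 8.60-fold in retired. Summed over both sequences, spring was 67.9 times winter on 1 winter read, with an interval of 11.7 to 2727.

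TC21577, whose best match is a bat keratin-associated protein, stood at 258 RPKM in winter, 749.8 in spring and 588.7 in retired. Its reads covered a fraction of 0.169 of its length in each library, so its level rests on a short stretch. LOC724114 (TC17127) stood at 15.8, 64.03 and 62.8 RPKM and LOC726722 (TC15902) at 8.32, 19.5 and 19.1 RPKM. These 3 had intervals to winter above 1. A FAM136A-like sequence (NP9547643) had 5, 18 and 12 reads, a LOC725422 fragment (CK631781) 4, 9 and 10, and a twitchin-like fragment of 108 bases (NP9544802), also 1 of the 52 muscle markers, 1, 4 and 5. For each of the last 3 a ratio to winter included 1. The orthology column names a CUG-BP- and ETR3-like factor for the twitchin-like fragment, so what it encodes is uncertain.

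The rule did not use the ratio of retired to spring, but both levels entered the choice of members, so this ratio too is a description. Of the 57 members 40 were lower in retired than in spring and 17 higher. The median log2 ratio was -0.24, beside -0.04 over the 7227 described sequences, of which 55.7% were lower. At least 2-fold higher in retired, on the scale of RPKM + 1, were 2 members, against 1.72% of the described sequences, and 5 were at least 2-fold lower, against 1.18%. The 50 others lay within 2-fold of their spring level. Intervals lay below 1 for 20 members, beside 12.6% of the described sequences, and above 1 for 7, beside 8.97%. The intervals of 30 members included 1.

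The 7 members with an interval above 1 were the MRJP5 match, both LOC100871523 sequences, LOC552041, TC19200, A4 and the N-acetylneuraminate lyase. With each sequence taken alone, TC19200 was 2.38-fold higher in retired (1.95 to 2.91) and the MRJP5 match 2.01-fold (1.94 to 2.08), which are the 2 past 2-fold. Those at least 2-fold lower in retired were the alcohol dehydrogenase, the hedgehog-like ligand, Gr10, LOC726990 and the C6orf192 homolog. Gr10 was 2.40-fold lower (1.85 to 3.15), LOC726990 2.30-fold (1.55 to 3.47) and the C6orf192 homolog 2.18-fold (1.67 to 2.85). The hedgehog-like sequence was 2.78-fold lower on 8 against 23 reads (1.20 to 7.18). By role, the median log2 ratio was lowest for transport and taste at -0.68 and for the 10 enzymes at -0.58. For chromatin, RNA and translation it was -0.33, for sugars and glycans -0.27 and for the secretory pathway -0.24. It was above 0 for secreted proteins at 0.16 and for the group with no described function or another role at 0.06. The first is the value of the apisimin fragment, on 11 reads in spring and 12 in retired (interval of the ratio 0.456 to 2.82). The second is that of LOC409852 (0.992 to 1.10), so neither gives a direction beyond counting error. The roles were assigned after the values had been seen.

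**Figure D2:**
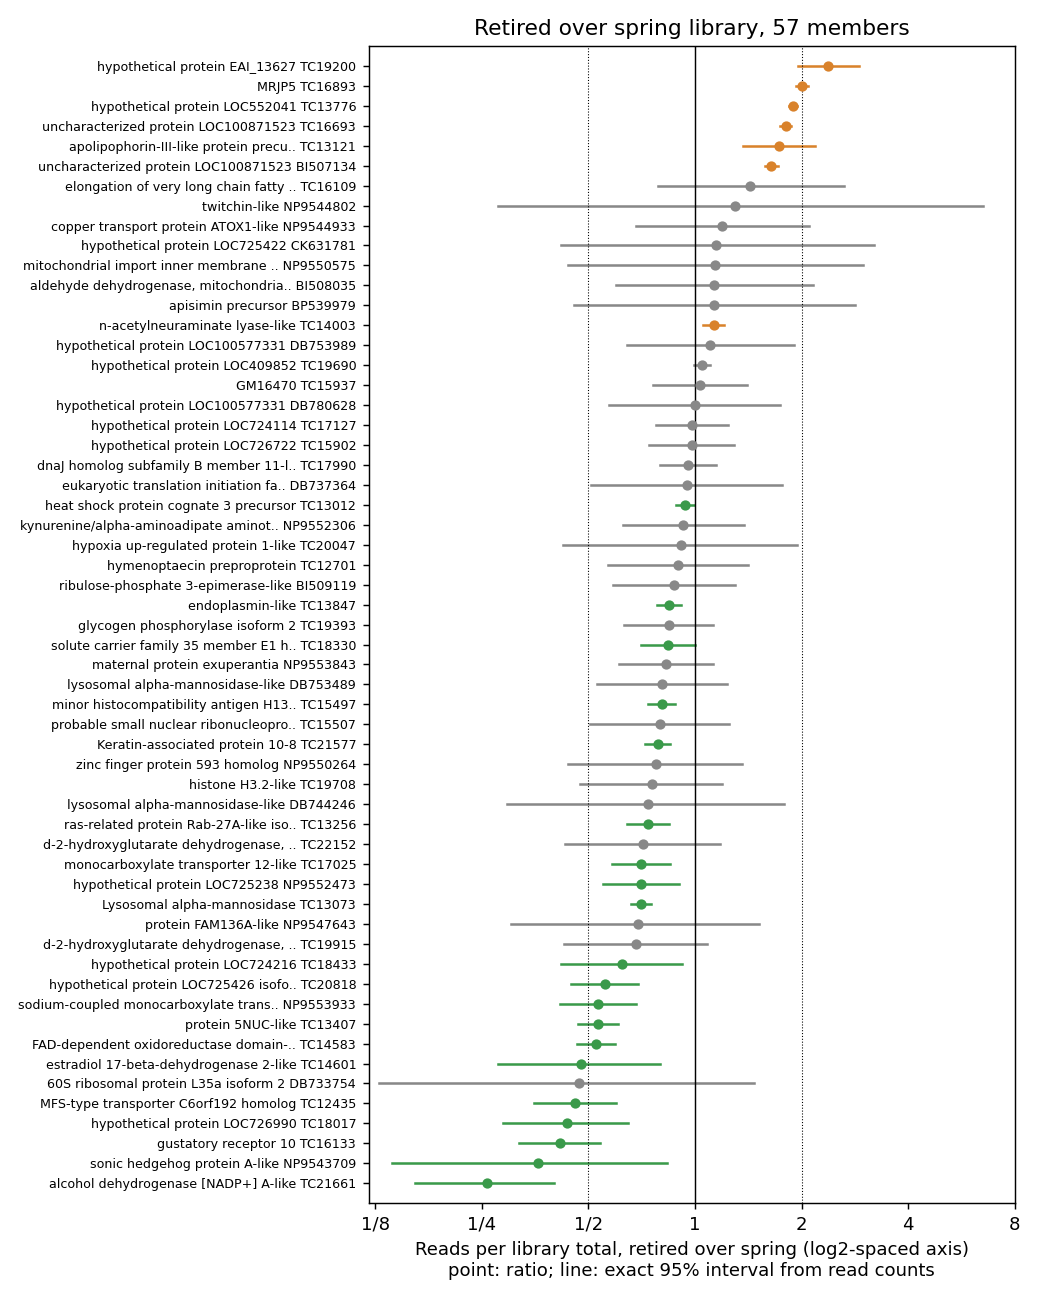
Ratio of reads per library total, retired over spring, for each of the 57 members with its exact 95% interval from read counts, on a log2-spaced axis with dotted lines at 2-fold in either direction. The 7 intervals above 1 are orange, the 20 below 1 green and the 30 that include 1 grey.

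A transcript sequence is not a gene, and several sequences may match 1 protein. The 57 members matched 53 protein entries, of which 34 had no other sequence. For the other 19, reads were summed over all sequences of the match. In 11 of the 19 the sum was at least 2-fold above winter in both libraries, and in 8 it was not. Among the 38 other sequences of these matches, 1 (BQ103817, on 0, 2 and 1 reads) was at least 2-fold above winter in both libraries and 10 were below winter in both. These 38 come from the same libraries, so they are no replicate. Sequences were grouped by database entry, and 1 protein can have several entries. The MRJP5 entry is among the 34, but TC12344 matches another entry, named major royal jelly protein 5 precursor. It was left out by the word filter and had 15947 reads in winter, 29244 in spring and 63236 in retired.

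The sums stayed high for the abundant proteins. LOC552041 was 2.33-fold above winter in spring (2.26 to 2.41) and 4.89-fold in retired (4.75 to 5.03) over its 2 sequences, the second (TC20120) having 1430, 2391 and 6663 reads. The LOC552041 sum was also past 2-fold in retired over spring, at 2.10-fold (2.05 to 2.14), while the member alone was 1.89-fold higher. LOC100871523 was 2.59-fold (2.49 to 2.69) and 4.49-fold (4.33 to 4.65) above winter. N-acetylneuraminate lyase was 2.09-fold (1.94 to 2.26) and 2.39-fold (2.22 to 2.58) above winter.

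In the 8 matches whose sums did not keep the 2-fold difference, the member was a small part of the protein's reads. The ribosomal protein L35a fragment held 0.176% of its protein's winter reads, and the sum was 0.817 times winter in spring (0.717 to 0.931). The apisimin fragment held 0.437% of the winter reads, and the sum was 0.840 times winter in spring (0.767 to 0.919). The LOC725422 sum was 0.651 times winter in spring (0.573 to 0.739). All 3 sums were thus below winter, while the ratios of the fragments were above 1.

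Glycogen phosphorylase, whose member fragment held 2.21% of the winter reads, was 1.06-fold above winter in spring (1.00 to 1.13). In the twitchin-like entry the sum was 1.01 times winter in spring (0.766 to 1.32). Sums for initiation factor 5A, at 1.72-fold in spring (1.60 to 1.86), for hypoxia up-regulated protein 1, at 1.83-fold (1.63 to 2.06), and for aldehyde dehydrogenase, at 1.29-fold (1.14 to 1.46), were above winter but under 2-fold. In spring over winter the sum lay below the fragment's own interval for ribosomal protein L35a, LOC725422 and glycogen phosphorylase. It lay inside that interval for apisimin, twitchin, initiation factor 5A, hypoxia up-regulated protein 1 and aldehyde dehydrogenase, whose fragments had few reads.

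**Figure D3:**
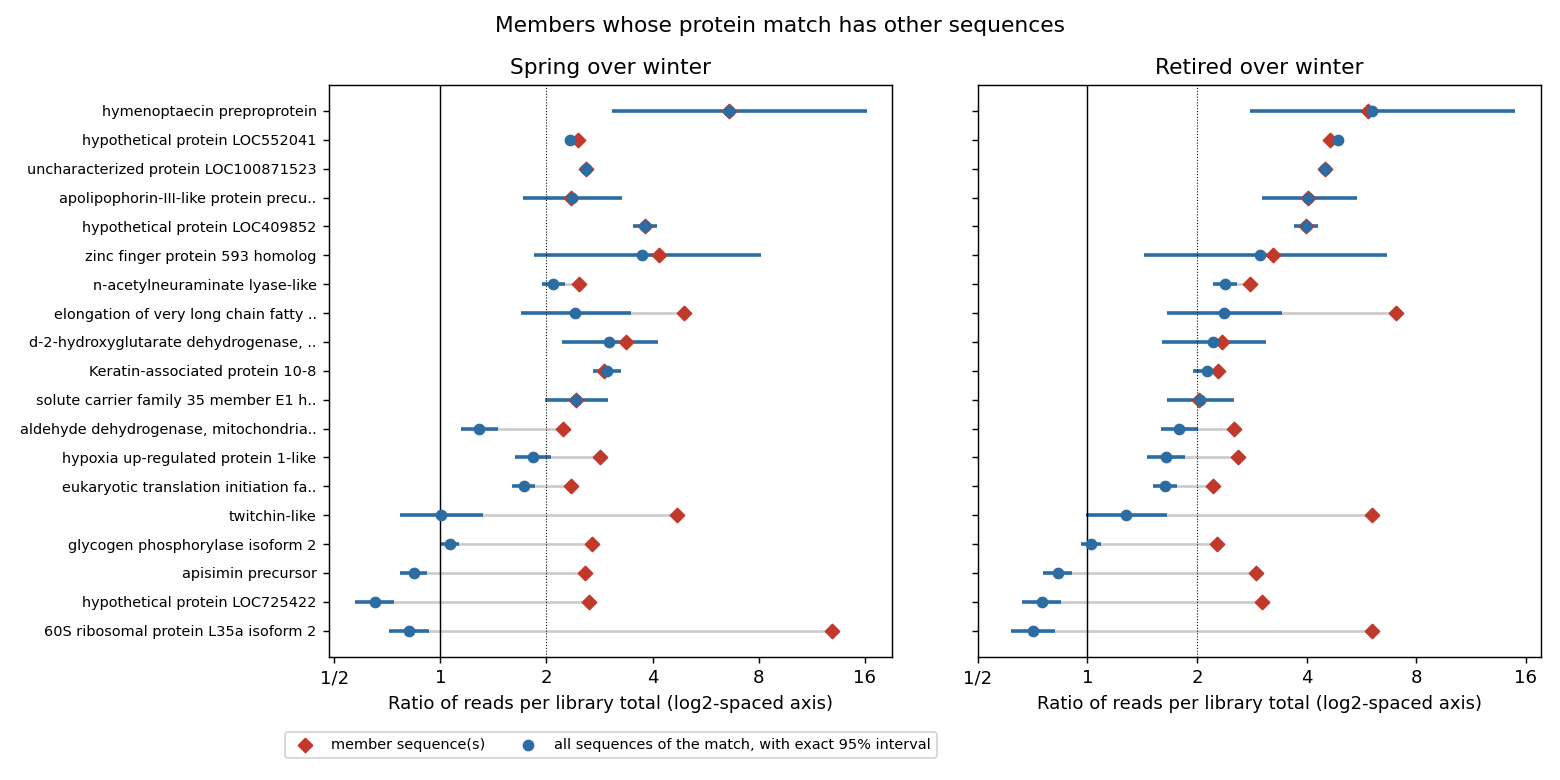
Ratio of reads per library total to winter for the 19 protein matches that have sequences beyond the members, in spring (left) and retired (right), on log2-spaced axes. Red diamonds give the member sequences and blue circles all sequences of the match with the exact 95% interval; 11 of the 19 circles lie at or right of the dotted 2-fold line in both panels.

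The pathways the members come from were counted by words in the protein match, over described sequences with at least 10 RPKM in spring or retired. These counts include sequences that the word filter left out, so not all of them are members. Of 90 sequences for chaperones and glycan processing of the endoplasmic reticulum, 6 (6.67%) were at least 2-fold above winter in both libraries, beside 1.19% of all, and the 6 are all members. Of these, 3 are the chaperones endoplasmin, DnaJ B11 and hypoxia up-regulated protein 1, and 3 are the lysosomal alpha-mannosidases, which act in another compartment. Among the mannosidases, DB753489 and DB744246 match the same entry, and the hypoxia up-regulated sequence rested on 7, 17 and 15 reads. The words of the list did not pick up Hsc70-3, a member. They also missed a protein disulfide-isomerase sequence (TC20174) that met the same values but was left out by the word filter. This list's median log2 ratio was 0.20 in spring over winter and 0.06 in retired over winter, beside -0.17 and -0.19 over all 7227. Of 181 sequences for lipid and sterol metabolism 5 were at least 2-fold above winter in both, of 116 for redox and detoxification 3, of 137 for amino acid metabolism 3, and of 46 for secreted binding and extracellular proteins 2. For Golgi and vesicle transport the count was 2 of 139, for carbohydrate metabolism 2 of 147, for transporters and channels 4 of 253 and for mitochondrial energy metabolism 5 of 385.

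Counts at or under the background were 1 of 93 for translation factors, 8 of 1309 for transcription and signalling, 1 of 176 for ribosomal proteins and ribosome assembly and 1 of 141 for proteases and peptidases. They were 1 of 195 for cytoskeleton and muscle, 0 of 29 for folate and nucleotide metabolism and 16 of 1723 for uncharacterised proteins. Lists were matched by words, can share sequences and can hold members outside their name. Of the sequences counted, members were 3 of 5 for lipid and sterol metabolism, 2 of 3 for redox and 1 of 3 for amino acids. They were 1 of 2 for Golgi and vesicle transport and 1 of 2 for carbohydrates. For transcription and signalling they were 5 of 8, for uncharacterised proteins 15 of 16 and for proteases 0 of 1. In the remaining lists every sequence counted was a member. Members were chosen on these same values.

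Near the 2-fold limit the choice of members was fine-grained. Just inside were the solute carrier 35 E1 sequence, with a smaller log2 ratio of 1.00075, the H13 sequence at 1.01 and the aldehyde dehydrogenase fragment at 1.01. Just outside were a lambda crystallin-like protein (TC15939) at 0.994, another sequence of D-2-hydroxyglutarate dehydrogenase (BI515771) at 0.990 and an apisimin fragment (TC22389) at 0.980. The lambda crystallin-like sequence stood at 36.1 RPKM in winter, 114.8 in spring and 72.9 in retired. On the other side of the word filter stood 29 sequences that met the same limits on values, 9 of them royal jelly sequences. Their median log2 ratio of retired over spring was -0.46.

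For 39 members a honeybee gene could be named from the protein accession, the LOC number or the orthology entry, giving 37 genes. Assembly Amel_HAv3.1 served for their names and order only. Some of these genes lie close together. The H1/5 histone gene LOC725238 and the H2B gene LOC725344, the latter named through the orthology entry only, are adjacent protein-coding genes. Past LOC725414, to which no sequence was matched, lies the H2A gene LOC725450. Its sequences differed: NP9546647 stood at 13.9, 4.06 and 7.55 RPKM, below winter, and TC14010 at 1.56, 5.47 and 5.19 RPKM, above winter. The alcohol dehydrogenase-like gene LOC411202 and Gr10 have 2 genes between them, and they are 2 of the 5 members at least 2-fold lower in retired than in spring. The genes between are LOC100577553, to which no sequence was matched, and LOC411204, whose sequence (TC14204) stood at 30.4, 22.8 and 28.3 RPKM.

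The C6orf192 homolog gene LOC412764 and the ribosomal protein L35a gene LOC409599 have 4 genes between them, but the main sequence of the latter (TC17105) lay below winter, at 281, 223.9 and 196.8 RPKM. The neighbour of LOC412764 on the other side is LOC727028, a takeout-like gene left out by the word filter. The most read sequence of LOC727028 (TC13883) stood at 4.86 RPKM in winter, 85.1 in spring and 53.8 in retired, the same order of libraries as the C6orf192 homolog. The next gene on each side did not share it. LOC412763 (TC15367) stood at 61.02, 58.8 and 73.8 RPKM, and LOC727021 (NP9546273), also takeout-like, had 9, 7 and 1 reads. The endoplasmin-like gene LOC412150 and the solute carrier 35 E1 gene LOC411269 have 8 genes between them. Member genes up to 10 places apart in the gene order were looked at, and these 4 pairs are what was found. How often other genes lie as close was not counted, so the pairs do not show that members cluster.

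**Figure D4:**
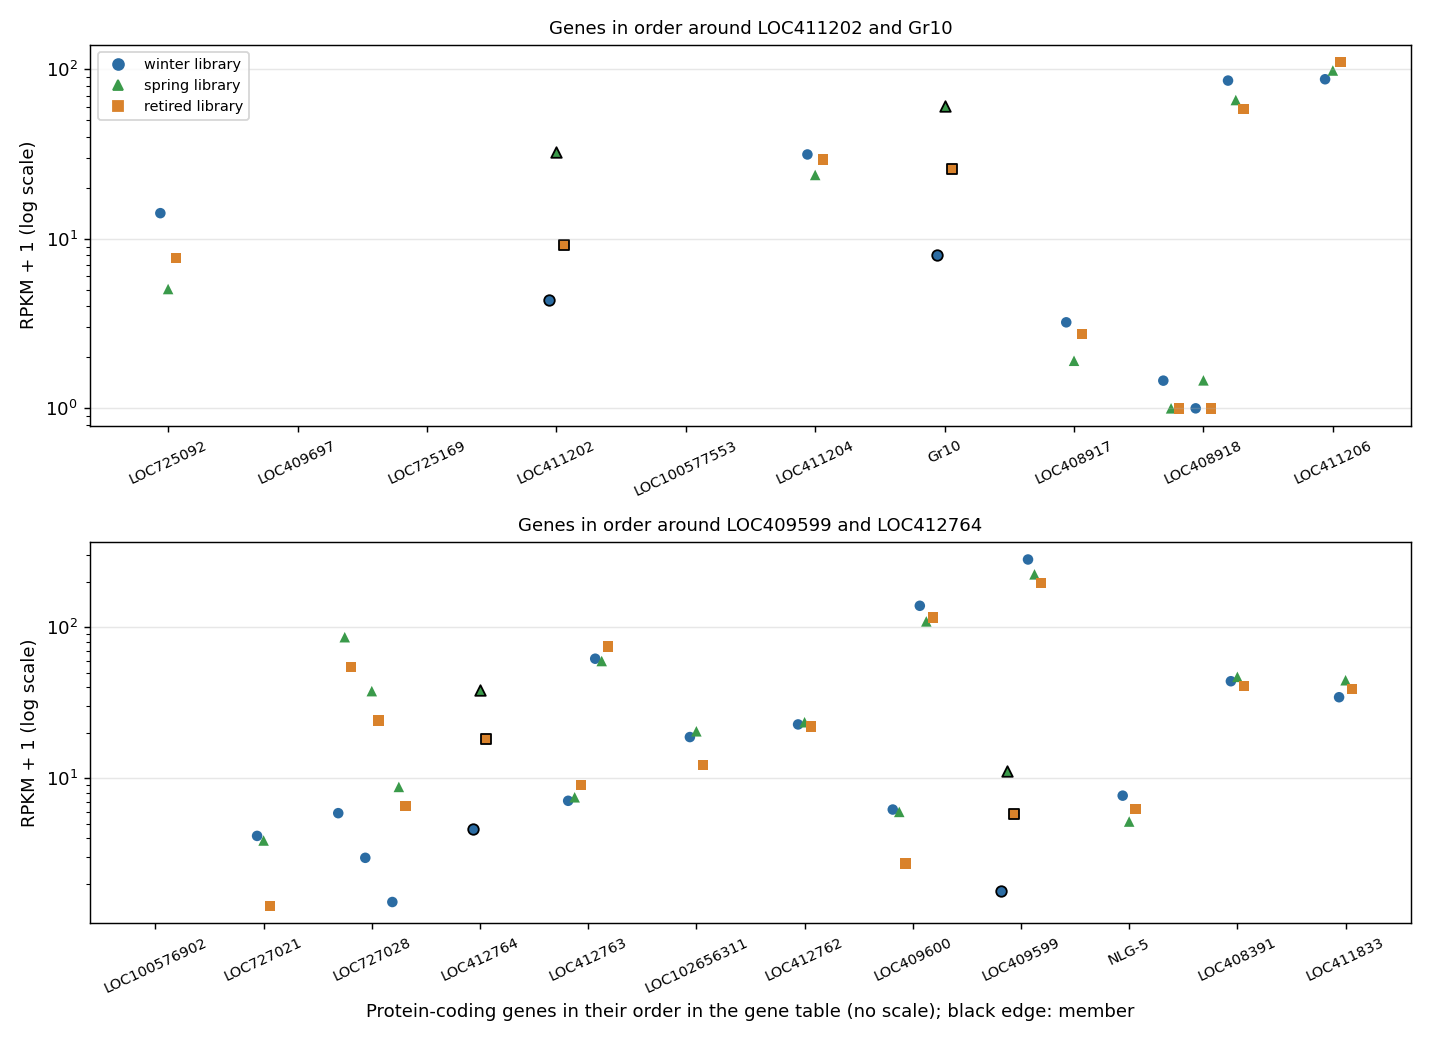
Level as RPKM + 1 on a log axis of the sequences matched to protein-coding genes, in gene order without scale, around the alcohol dehydrogenase-like gene and Gr10 (top) and around the C6orf192 homolog gene LOC412764 (bottom). Members have a black edge; in both panels their spring triangle is the highest and their winter circle the lowest point, and the takeout-like gene LOC727028 beside LOC412764 shows the same order.

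An orthology entry was given for 68.4% of members and 71.4% of the 7227 described sequences. Their median length was 680 bases, beside 1242 bases, so members were more often short sequences, on which fewer reads fall at a given RPKM.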

How the data were processed

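Messenger RNA from pools of 30 bees was sequenced as 1 library for each of 3 groups, per the labels' protocols. The authors deposited for each transcript sequence the count of uniquely mapped reads, RPKM (reads scaled by sequence length and library total), and the covered fraction of its length, per the file headers. The sources used here name no aligner, settings or build. Sequences that a table does not list were taken as 0.

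Tables were merged by sequence identifier. Log2 ratios used RPKM + 1, which understates ratios of low sequences. Folds are ratios of reads per library total with exact conditional binomial (Clopper-Pearson) 95% intervals, and shares have Wilson intervals. These cover counting error only, not the choice of members on the ratios to winter. With 1 library per group no p-value was computed. The calculation was tested on simulated data. Genes were named from a table of assembly Amel_HAv3.1.

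The members and lists were chosen with earlier results of these data known, and roles were assigned after seeing the values. The rule for naming sequences took, with 1 sequence per match, the 25 highest by level, the 10 highest by the smaller ratio, up to 15 per direction in retired over spring, 4 per list, and 3 on each side of the threshold. The remaining members were named after their values were seen. Alternatives were pseudocounts of 0.1 and 5, minima of 1 and 50 RPKM, folds of 1.5 and 3, rescaling to a median ratio of 1, no excluded words, at least 50 reads, and 1 sequence or summed reads per match. Computations used Python 3.11.15, with scipy 1.17.1, matplotlib 3.10.9, pandas 2.3.3 and numpy 2.4.6.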

Additional observations from a re-analysis of the deposited data

How the results depend on the processing

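The number of members depends on the rule. It was 57 as reported, 67 with a pseudocount of 0.1, 35 with a pseudocount of 5, 110 with a minimum of 1 RPKM and 23 with a minimum of 50 RPKM. It was 172 at 1.5-fold, 19 at 3-fold, 86 without the word filter and 110 when libraries were rescaled so that the median ratio was 1. Rescaling raised log2 ratios to winter by 0.26 in spring and 0.29 in retired, and those of retired over spring by 0.03. Alternatives added after seeing the data gave 25 members with both intervals to winter above 2, 48 with both above 1, 39 with at least 10 winter reads, and 45 matches from summed reads. The count at least 2-fold apart between retired and spring was 7 as reported, 4 with a pseudocount of 5 and 18 at 1.5-fold; it was between 6 and 9 under the other 4 alternatives. The median log2 ratio of retired over spring, -0.24, lay between -0.26 and -0.21 under its 5 alternatives. For single members, the log2 ratio of retired over spring stayed within its own interval in all 57 under both pseudocounts and the rescaling, and in 53 with reads summed per match. The 4 that moved were both LOC100871523 sequences, LOC552041 (TC13776) and the match to a bat keratin-associated protein (TC21577). No paired analysis was possible because each group has 1 library. Without replicates no library could be left out. Depth limits the 18 members with fewer than 10 winter reads.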

Other observations

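Among sequences with no protein match, 25 of the 4186 with at least 10 RPKM in spring or retired (0.597%) met the same values, and 10 of these reached 100 RPKM. The most abundant, TC24306, stood at 1092 RPKM in winter, 2342 in spring and 6034 in retired. BI509691 stood at 709, 1593 and 3484 RPKM and TC22013 at 660, 1707 and 2663 RPKM. All 3 had the order of libraries seen for LOC100871523, LOC552041 and the MRJP5 match. TC19787 stood at 17.5, 225.7 and 135.4 RPKM, highest in spring.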
